A study of Mus musculus with 18 samples.

Results

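Acta2, Actg2, Tagln, Cnn1, Cnn2, Myl9, Tpm1, Tpm2, Srf and Vcl are genes of the contractile and actin cytoskeleton that are widely known as partners or targets of serum response factor (SRF). These 10 genes were taken by name from a list, out of 23420 gene symbols in the count table. All 10 passed the filter on low counts, which left 11762 genes to test.

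The cells were NIH-3T3 mouse fibroblasts, an immortalized line, either wild-type (WT) or with Nrf1 knocked out by CRISPR/Cas9 (Nrf1-KO). Nrf1 here is the product of Nfe2l1, a transcription factor that raises proteasome genes when the proteasome is blocked. Each line received vehicle (DMSO) or 200 nM carfilzomib (CFZ), an irreversible proteasome inhibitor, for 6 or 24 h. This gave 6 groups of 3 libraries, 18 in all, which the study describes as biological replicates. The labels give no time for DMSO, so both CFZ times were set against the same 3 DMSO libraries of each line. Each genotype was 1 line, so the loss of Nrf1 and any other difference between the lines cannot be told apart.

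SRF is a transcription factor that binds a short DNA element, the CArG box, upstream of many muscle and cytoskeletal genes. Its partners include the myocardin-related factors Mkl1 and Mkl2, which are held back by free actin monomers and released when actin assembles into filaments, and the Elk factors, which answer to growth signals. In fibroblasts this circuit sets the supply of stress fibre components, and its strongly contractile members mark the myofibroblast state. Acta2, Actg2 and Tagln encode smooth muscle actins and transgelin, the calponins Cnn1 and Cnn2 and the tropomyosins Tpm1 and Tpm2 bind along actin filaments, Myl9 is a light chain of myosin, and Vcl encodes vinculin, which links actin to adhesion sites.

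The element by which the group is known was looked up before the levels. RefSeq promoter windows (GRCm38.p6) were at hand for 8 of the 10 genes, and the 250 bases before each start site were searched. Entries for Actg2 and Tagln were not used here. The search was for the CArG box itself, which begins with CC, ends with GG and has 6 inner bases that are each A or T, and for the same box with 1 inner G or C. Both strands are covered, since the element reads alike on both. A CArG box was present before Cnn2, Myl9, Srf and Vcl, the relaxed form before Acta2 and Myl9, and neither before Cnn1, Tpm1 and Tpm2. Of 32851 mouse windows of this length, 1.47% held a CArG box, 7.24% the relaxed form and 8.59% either. The stretches with a box are shown so that the letters, number and spacing of the boxes can be compared. They run 5′ to 3′ on the gene's own strand, with the boxes in capitals.
Acta2, chr19:34255438-34255467, minus strand: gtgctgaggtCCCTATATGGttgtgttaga
Acta2, chr19:34255388-34255417, minus strand: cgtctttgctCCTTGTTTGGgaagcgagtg
Cnn2, chr10:79988524-79988573, plus strand: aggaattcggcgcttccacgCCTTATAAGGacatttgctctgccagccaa
Myl9, chr2:156775283-156775394, plus strand: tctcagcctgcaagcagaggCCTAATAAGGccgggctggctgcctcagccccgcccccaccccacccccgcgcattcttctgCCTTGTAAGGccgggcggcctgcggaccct
Srf, chr17:46556195-46556264, minus strand: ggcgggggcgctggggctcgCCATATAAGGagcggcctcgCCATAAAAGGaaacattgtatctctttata
Vcl, chr14:20929151-20929200, plus strand: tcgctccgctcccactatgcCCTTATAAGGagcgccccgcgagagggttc

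Both Acta2 boxes and the second Myl9 box are of the relaxed form. Cnn2 and Vcl carried the same 10 letters in their boxes, 56 bases before the start site in Cnn2 and 227 bases before it in Vcl. Srf alone among the 8 had 2 exact boxes, which began 82 and 62 bases upstream. The Acta2 stretches lie in an exon of another Acta2 transcript in GENCODE M21, and the other stretches in no annotated exon. A match of letters is no measurement of binding.

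**Figure D1:**
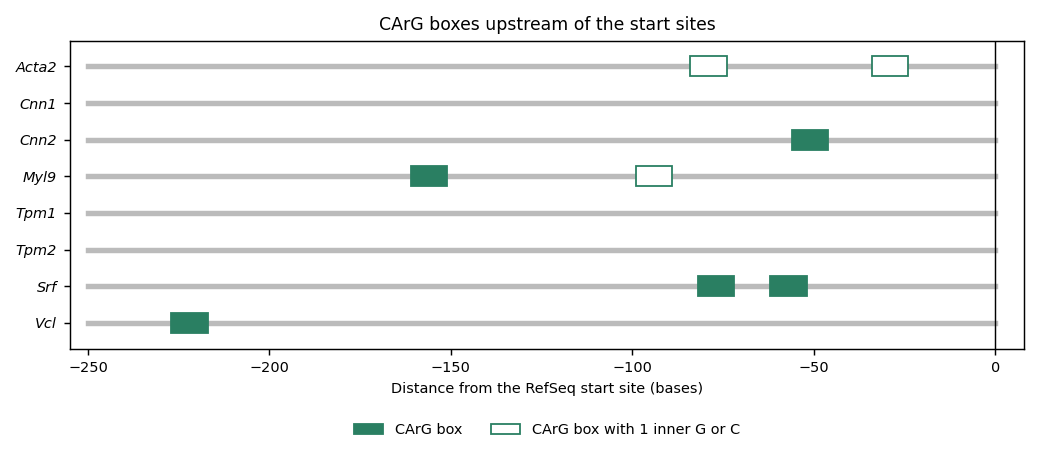
Position of CArG boxes (filled) and of boxes with 1 inner G or C (open) in the 250 bases before the RefSeq start site of 8 genes; the x axis is the distance from the start site in bases. Cnn2, Myl9, Srf and Vcl have a filled box, Acta2 has 2 open ones, and Cnn1, Tpm1 and Tpm2 have none.

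Library totals ran from 8333148 to 23917081 counts, with a median of 14419832. Levels are given as CPM, a gene's counts as a share of its library, scaled by TMM, which allows for differences in RNA composition. Errors of levels are SD over 3 libraries. Nfe2l1, the targeted gene, was at 437.3 to 456.9 CPM in the WT DMSO libraries and at 174.3 to 184.6 in the Nrf1-KO DMSO libraries. It was lower in Nrf1-KO cells in all 3 conditions (log2 difference -1.31 ± 0.03 (SE) in DMSO, adjusted p = 1.56e-24), with its messenger RNA still present. Libraries of 1 group correlated at 0.994 or more and libraries of different groups at 0.9746 or less.

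The level of all 10 genes moved with CFZ, and all 10 were lowest in the same group, Nrf1-KO cells after 24 h of CFZ. The share of all genes tested that were lowest in that group was not counted. The summed level of the 10 was 2077 to 2160 CPM in WT DMSO, 2598 to 2631 at 6 h and 1225 to 1243 at 24 h. In Nrf1-KO cells it was 1366 to 1456 in DMSO, 1716 to 1774 at 6 h and 576 to 594.9 at 24 h. These are shares of the RNA of a culture, so fewer cells of a kind and less RNA per cell cannot be told apart. Per kilobase of exon, Acta2 stood highest of the 10 in WT DMSO at 236.3 CPM, followed by Cnn2 at 138.7 and Vcl at 65.87, with Cnn1 lowest at 1.557. By 24 h in Nrf1-KO cells Vcl stood highest at 32.82 CPM per kilobase, and Acta2 was at 12.26.

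**Figure D2:**
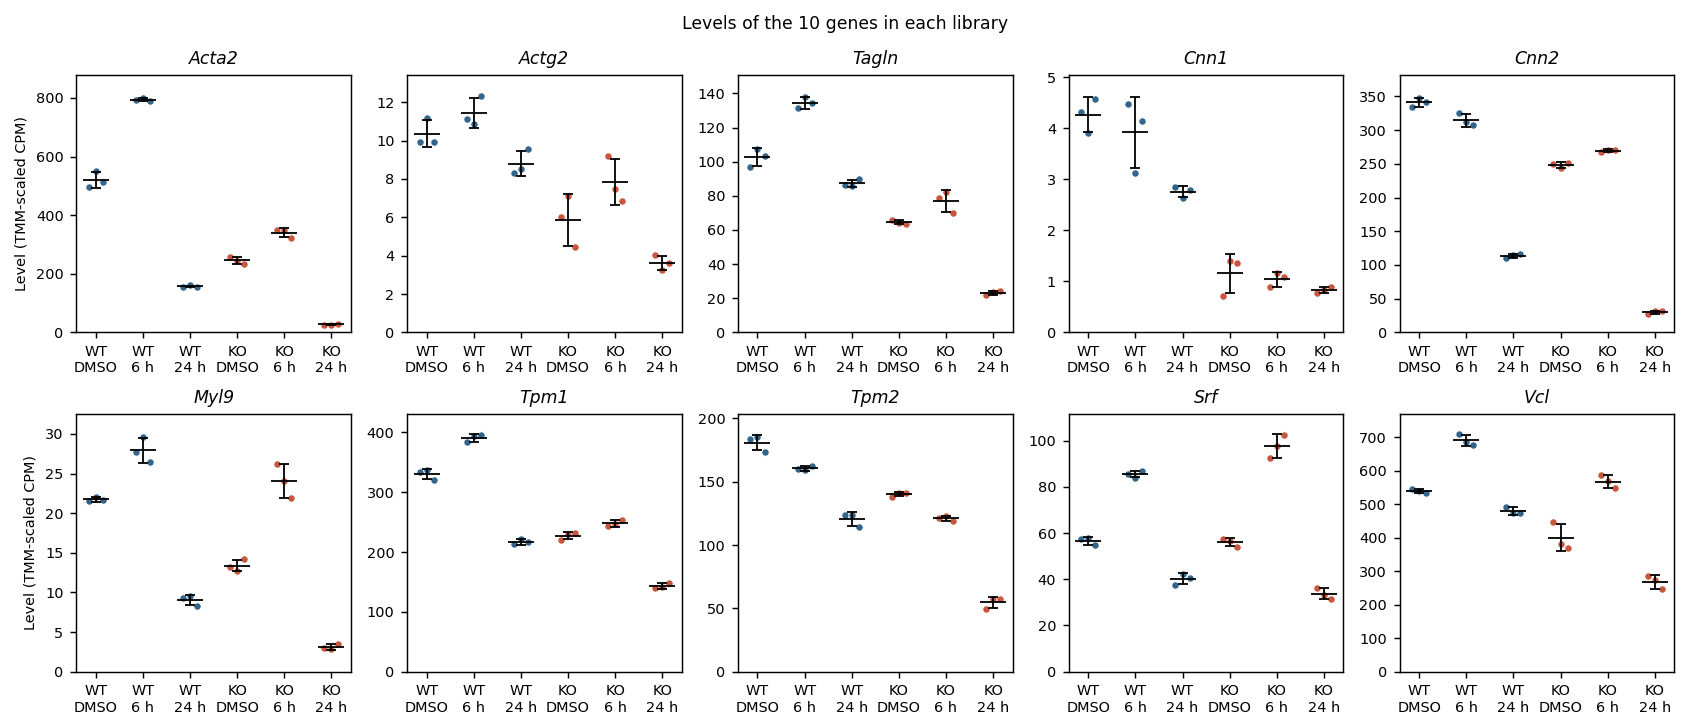
TMM-scaled CPM of each gene (y axis, from 0) in the 18 libraries by group (x axis); points are libraries, the wide dash is the group mean and the bar is the SD, with WT in blue and Nrf1-KO in red. In all 10 panels the Nrf1-KO 24 h group has the lowest mean, from 0.8316 CPM for Cnn1 to 268.8 CPM for Vcl.

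Acta2 (smooth muscle α-actin, chr19:34241090-34255590 in GRCm38, minus strand) covered the widest range of the 10. In WT cells it stood at 494.7, 549 and 513 CPM in DMSO, 792.9, 799.2 and 790.6 after 6 h, and 153.9, 160.3 and 155.7 after 24 h. In Nrf1-KO cells it stood at 258.4, 243.5 and 234.4 CPM in DMSO, 348.5, 350.8 and 322.1 after 6 h, and 26.13, 25.07 and 29.56 after 24 h. No 2 of the 6 groups overlapped, and the order from the top was WT 6 h, WT DMSO, Nrf1-KO 6 h, Nrf1-KO DMSO, WT 24 h and Nrf1-KO 24 h. The highest group mean was 29.5 times the lowest.

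Tagln (transgelin, chr9:45929619-45936058, minus strand) also rose at 6 h and stood below DMSO at 24 h in both lines. Its level was lower than that of Acta2, and its order of groups was different. WT libraries had 96.82, 107.5 and 103.4 CPM in DMSO, 131.3, 138.1 and 134.6 at 6 h, and 86.51, 85.98 and 89.62 at 24 h. Nrf1-KO libraries had 65.73, 64.1 and 63.62 CPM in DMSO, 78.58, 82.32 and 69.78 at 6 h, and 21.9, 23.69 and 24.16 at 24 h. Again none of the 6 groups overlapped, and every WT group lay above every Nrf1-KO group. Of the exonic bases of Tagln, 67.9% overlap exons of Pcsk7 or Gm48529 on the opposite strand, and the sources used here do not say whether counting used the strand. Pcsk7 stayed between 22.67 ± 1.77 and 30.51 ± 1.32 CPM by group mean, close to the level of Tagln in Nrf1-KO cells at 24 h, and its part in the Tagln values was not tested.

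Actg2 (smooth muscle γ-actin, chr6:83512905-83536265, minus strand) was scarce. Its means were 10.35 ± 0.703, 11.45 ± 0.795 and 8.798 ± 0.653 CPM in WT DMSO, 6 h and 24 h, and 5.868 ± 1.36, 7.832 ± 1.21 and 3.634 ± 0.371 CPM in Nrf1-KO cells. The WT 6 h and DMSO libraries overlapped, as did WT 24 h with Nrf1-KO 6 h, and Nrf1-KO 6 h with Nrf1-KO DMSO. Cnn1 (calponin 1, chr9:22099216-22109630, plus strand), a marker of differentiated smooth muscle, was scarcer still. WT means were 4.261 ± 0.341, 3.916 ± 0.7 and 2.758 ± 0.108 CPM, and Nrf1-KO means 1.157 ± 0.378, 1.039 ± 0.143 and 0.8316 ± 0.0567 CPM, which rest on 9 to 35 counts a library. The 3 Nrf1-KO groups of Cnn1 overlapped in library order, all below the lowest WT library at 2.638 CPM.

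Cnn2 (calponin 2, chr10:79988584-79996062, plus strand), the calponin of non-muscle cells, was abundant. In WT cells the libraries held 334.1, 347.9 and 341.6 CPM in DMSO, 324.9, 311.9 and 306.8 at 6 h, and 110.3, 114.6 and 115.5 at 24 h. In Nrf1-KO cells they held 250.3, 243.5 and 251.1 CPM in DMSO, 267.1, 270.7 and 270.6 at 6 h, and 27.11, 31.29 and 31.27 at 24 h. The groups did not overlap, and the 2 groups at 24 h stood far below the other 4.

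Myl9 (regulatory light chain of smooth muscle and non-muscle myosin, chr2:156775420-156781658, plus strand) had 21.55, 22.03 and 21.61 CPM in WT DMSO, 27.68, 29.64 and 26.51 at 6 h, and 9.251, 9.594 and 8.305 at 24 h. Nrf1-KO libraries had 13.26, 12.73 and 14.19 CPM in DMSO, 26.19, 24.09 and 21.94 at 6 h, and 2.958, 2.829 and 3.552 at 24 h. The 6 h Nrf1-KO libraries reached into the range of WT DMSO, and the other groups were separate.

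The tropomyosins stiffen actin filaments and control which proteins bind them. Tpm1 (chr9:67022590-67049406, minus strand) averaged 330.2 ± 8, 390.9 ± 6.59 and 217.2 ± 4.83 CPM in WT DMSO, 6 h and 24 h, and 227.4 ± 5.8, 247.8 ± 5.59 and 143.5 ± 4.77 CPM in Nrf1-KO cells. Tpm2 (chr4:43514711-43523765, minus strand) averaged 180.9 ± 6.11, 160.6 ± 1.82 and 120.4 ± 5.57 CPM in WT cells, and 140.2 ± 1.86, 121 ± 1.8 and 54.86 ± 4.34 CPM in Nrf1-KO cells. Tpm1 was highest at 6 h within each line, whereas Tpm2 was highest in DMSO. Nrf1-KO DMSO overlapped WT 24 h for Tpm1, and Nrf1-KO 6 h overlapped WT 24 h for Tpm2. Counts are per gene, so the many tropomyosin isoforms were not resolved.

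Srf (chr17:46548329-46556175, minus strand), which encodes the transcription factor, had its own order. WT libraries had 57.56, 57.69 and 54.63 CPM in DMSO, 85.54, 84.03 and 86.91 at 6 h, and 37.61, 42.45 and 40.47 at 24 h. Nrf1-KO libraries had 57.52, 56.71 and 53.94 CPM in DMSO, 92.31, 97.69 and 102.6 at 6 h, and 36.34, 33.23 and 31.52 at 24 h. It was the only one of the 10 whose highest group was Nrf1-KO 6 h, and the only one whose DMSO libraries overlapped between the lines. Vcl (chr14:20929398-21033676, plus strand) had 546.6, 539.2 and 532.9 CPM in WT DMSO, 709.6, 686.2 and 677.1 at 6 h, and 492.9, 472.9 and 473.3 at 24 h. In Nrf1-KO cells it had 445.4, 382.4 and 369.8 CPM in DMSO, 587.1, 568 and 547.5 at 6 h, and 285.8, 275 and 245.5 at 24 h. The 6 Vcl groups did not overlap, and its highest group mean was 2.57 times its lowest, the narrowest range of the 10. Of its exonic bases, 25.5% overlap exons of Ap3m1 on the opposite strand, which averaged 94.81 ± 1.33 to 150.3 ± 4.08 CPM. Ap3m1 rose by 0.21 on the log2 scale in WT cells at 6 h, and in Nrf1-KO cells it fell by 0.22 at 6 h and by 0.41 at 24 h. Its part in the Vcl values was not tested.

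After 6 h of CFZ most of the 10 genes rose in both lines, led by Acta2 and Srf in WT cells and by Myl9 and Srf in Nrf1-KO cells, while Tpm2 fell in both. Tests were edgeR quasi-likelihood tests in 1 model of the 6 groups, with Benjamini-Hochberg adjustment over all 11762 genes and a threshold of 0.05, and errors of log2 values are SE. In WT cells 6 genes rose, 2 fell and 2 did not pass, against 35.6% of all genes tested called higher and 36.2% called lower. In Nrf1-KO cells 8 rose, 1 fell and 1 did not pass, against 34.5% higher and 35% lower. The median log2 fold change of the 10 was 0.30 in WT and 0.37 in Nrf1-KO cells, where that of all genes tested was -0.02 and -0.01. None of the 10 changed by 2-fold or more at this time.

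Among the smooth muscle genes at 6 h, Acta2 rose 1.53-fold in WT cells (log2 fold change 0.61 ± 0.04, adjusted p = 1.28e-14) and 1.39-fold in Nrf1-KO cells (0.48 ± 0.04, adjusted p = 2.51e-11). Tagln rose 1.31-fold in WT and 1.2-fold in Nrf1-KO cells. Actg2 had a log2 fold change of 0.15 ± 0.11 in WT cells (adjusted p = 0.245) and rose by 0.50 ± 0.14 in Nrf1-KO cells (adjusted p = 0.00233). The Nrf1-KO rise of Actg2 was lost without DMSO replicate 3 (0.27, adjusted p = 0.0772) or without 6 h replicate 1 (0.36, adjusted p = 0.0555). Cnn1 did not pass in either line, at -0.12 ± 0.15 and -0.21 ± 0.28.

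At 6 h Myl9 rose 1.29-fold in WT cells. In Nrf1-KO cells it rose 1.8-fold (0.85 ± 0.08, adjusted p = 1.6e-11), which was the largest of the 20 values at that time. Srf rose 1.51-fold in WT (0.59 ± 0.05, adjusted p = 1.24e-12) and 1.74-fold in Nrf1-KO cells (0.80 ± 0.05, adjusted p = 1.1e-15). Vcl rose 1.28-fold and 1.42-fold. Of the filament-binding genes, Tpm2 fell by 0.17 on the log2 scale in WT and by 0.21 in Nrf1-KO cells, and Tpm1 rose by 0.24 in WT cells. Cnn2 fell by 0.12 in WT cells. In Nrf1-KO cells Cnn2 and Tpm1 each rose by 0.12, but neither passed when libraries were scaled by size alone (0.01 for both, adjusted p = 0.973 and 0.82), with upper-quartile scaling (adjusted p = 0.285 and 0.231) or with no filter on low counts (adjusted p = 0.146 and 0.123). Scaling by library size alone shifted the median of all genes by -0.13 in WT and -0.11 in Nrf1-KO cells at 6 h, and took the share of called genes that were higher from 49.6% to 35.4% and from 49.7% to 36.4%.

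At 24 h the direction had turned, and every one of the 10 genes had a lower mean than in DMSO in both lines. In WT cells 9 fell, 1 did not pass and 0 rose, against 40.5% of all genes called lower and 43.2% called higher. Of the 9, 3 fell at least 2-fold, against 14.5% of all genes. In Nrf1-KO cells 9 again fell and 1 did not pass, against 41.1% lower and 44.4% higher, and 5 fell at least 2-fold, against 15.2%. Of all called genes in Nrf1-KO cells 52% were higher, or 41.6% with library size alone. The median log2 fold change of the 10 was -0.60 in WT and -1.04 in Nrf1-KO cells, where all genes tested had medians of 0.02 and 0.03.

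Acta2 fell 3.31-fold in WT cells by 24 h (log2 fold change -1.73 ± 0.04, adjusted p = 5.49e-26) and 9.12-fold in Nrf1-KO cells (-3.19 ± 0.05, adjusted p = 9.44e-31). Cnn2 fell 3-fold in WT (-1.59 ± 0.04, adjusted p = 4.89e-27) and 8.28-fold in Nrf1-KO cells (-3.05 ± 0.04, adjusted p = 1e-32). Myl9 fell 2.41-fold and 4.34-fold. These 3 genes made up the WT set past 2-fold, and Tagln (2.76-fold) and Tpm2 (2.55-fold) joined them in Nrf1-KO cells. In WT cells Tagln fell 1.17-fold and Tpm2 1.51-fold.

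The other genes fell less. Srf was 1.4-fold lower in WT (-0.49 ± 0.05, adjusted p = 6.35e-10) and 1.66-fold lower in Nrf1-KO cells (-0.73 ± 0.05, adjusted p = 3.86e-14). Tpm1 was 1.52-fold and 1.59-fold lower, and Vcl 1.13-fold and 1.48-fold lower. Actg2 passed in Nrf1-KO cells (-0.64 ± 0.16, adjusted p = 0.00038) and not in WT cells (-0.22 ± 0.12, adjusted p = 0.0773), though its libraries did not overlap in either line. In WT cells Actg2 passed when any 1 of 8 libraries was left out, namely WT DMSO replicate 1 (-0.29, adjusted p = 0.0463), Nrf1-KO DMSO replicate 3 and the 6 libraries of WT 6 h and Nrf1-KO 24 h. It also passed with upper-quartile scaling (adjusted p = 0.00548), library size alone (adjusted p = 0.0103), no filter on low counts (adjusted p = 0.0113) and the compared groups alone (adjusted p = 0.0176). Cnn1 passed in WT cells (-0.63 ± 0.16, adjusted p = 0.000583) and not in Nrf1-KO cells (-0.52 ± 0.27, adjusted p = 0.0766), where it passed without Nrf1-KO DMSO replicate 1 (-0.71, adjusted p = 0.0186), with upper-quartile scaling (adjusted p = 0.0339) and with library size alone (adjusted p = 0.0184).

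**Figure D3:**
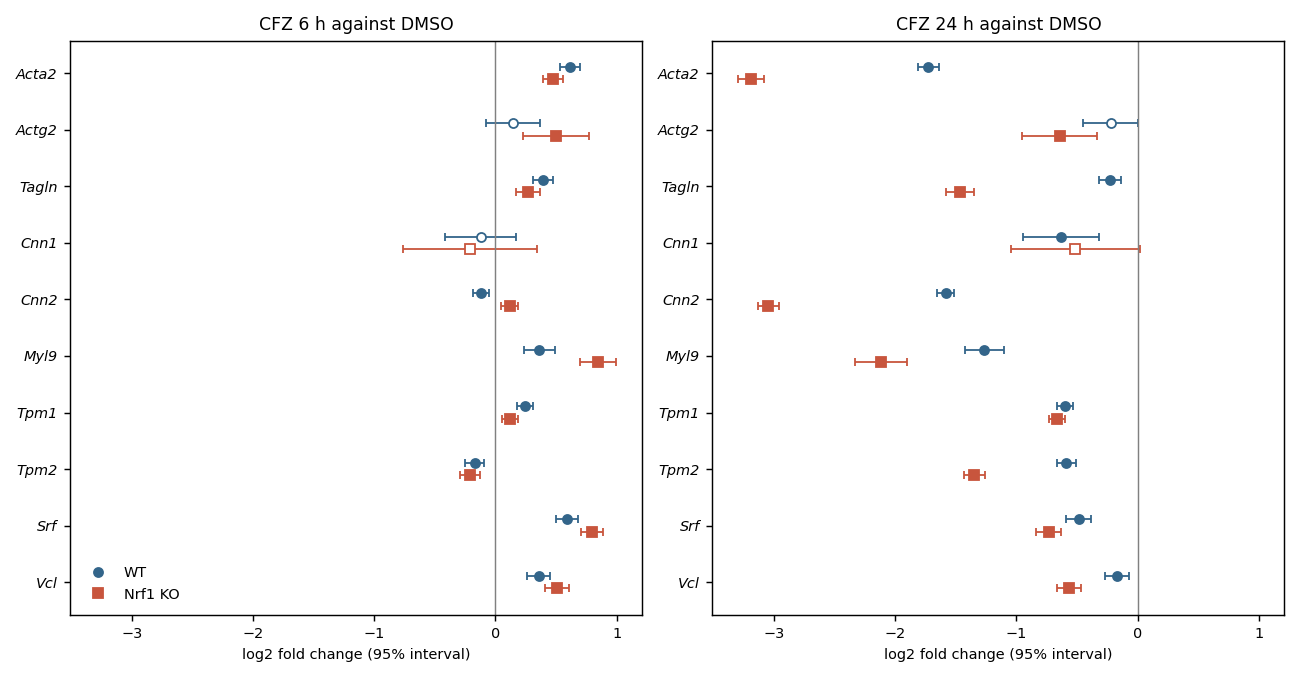
log2 fold change of each gene (x axis) after 6 h (left) and 24 h (right) of CFZ against DMSO in WT (blue circles) and Nrf1-KO cells (red squares); bars are 95% intervals and open symbols did not pass the adjusted threshold. At 6 h the values lie between -0.21 and 0.85, and at 24 h all 20 values are below 0, down to -3.19 for Acta2 in Nrf1-KO cells.

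Between 6 and 24 h of CFZ, a comparison without the shared DMSO libraries, all 10 genes fell in WT cells, against 35.4% of genes called lower and 36.9% called higher. Of these, 4 fell at least 2-fold (Acta2, Cnn2, Myl9 and Srf), against 6.92% of all genes. In Nrf1-KO cells 9 fell, against 38.3% lower and 38.7% higher, and 8 fell at least 2-fold, against 9.22%. From 6 to 24 h Acta2 fell 5.07-fold in WT and 12.7-fold in Nrf1-KO cells, and Srf 2.11-fold and 2.89-fold. Cnn1 passed in WT cells at -0.51 ± 0.17 (adjusted p = 0.00891), though not with DESeq2 (adjusted p = 0.065), and had -0.30 ± 0.32 in Nrf1-KO cells.

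In DMSO, the contractile genes stood lower in the Nrf1-KO line than in WT cells, with Srf the exception. Of the 10, 9 were lower and 0 higher, against 29.1% of all genes called lower and 25.7% called higher. Of all called genes 46.9% were higher, or 57.7% with library size alone. Cnn1 was 3.54-fold lower (log2 difference -1.83 ± 0.18, adjusted p = 3.72e-10) and Acta2 2.12-fold lower (-1.08 ± 0.04, adjusted p = 6.65e-20). These 2 were past 2-fold, as were 1.77% of all genes in that direction. Actg2 was 1.83-fold lower, Myl9 1.61-fold, Tagln 1.59-fold, Tpm1 1.45-fold, Cnn2 1.37-fold, Vcl 1.35-fold and Tpm2 1.29-fold. Srf differed by -0.02 ± 0.05 (95% interval -0.12 to 0.07, adjusted p = 0.735), and its sign turned when libraries were scaled by size alone (0.03) or without WT DMSO replicate 1 (0.01) or Nrf1-KO DMSO replicate 3 (0.01).

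After 6 h of CFZ, 9 genes were lower in Nrf1-KO than in WT cells, against 30.8% of all genes, and Srf was higher, as were 30.5%. Of all called genes 49.8% were higher, or 60.8% with library size alone. Srf was 1.14-fold higher (0.18 ± 0.05, adjusted p = 0.00108). Cnn1 (3.77-fold) and Acta2 (2.33-fold) were again past 2-fold, against 3% of all genes. Of the 9 lower genes Myl9 had the smallest gap, 1.15-fold lower (-0.20 ± 0.07, adjusted p = 0.0143). It did not pass with DESeq2 (adjusted p = 0.0817), upper-quartile scaling (0.0621) or library size alone (adjusted p = 0.1), nor without WT 6 h replicate 2 (-0.16, adjusted p = 0.0727) or Nrf1-KO 6 h replicate 3 (-0.15, adjusted p = 0.0763).

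After 24 h all 10 were lower in Nrf1-KO cells, against 36.4% of all genes called lower and 35.6% called higher, and 7 were past 2-fold, against 5.53%. Acta2 was 5.83-fold lower (-2.54 ± 0.06, adjusted p = 7.44e-27), Cnn2 3.79-fold, Tagln 3.75-fold, Cnn1 3.27-fold, Myl9 2.9-fold, Actg2 2.45-fold and Tpm2 2.18-fold. Vcl was 1.78-fold lower, Tpm1 1.51-fold and Srf 1.2-fold (-0.27 ± 0.06, adjusted p = 0.000134). The median log2 difference of the 10 was -0.60 in DMSO, -0.46 at 6 h and -1.42 at 24 h, beside -0.02, 0.00 and 0.00 for all genes tested.

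**Figure D4:**
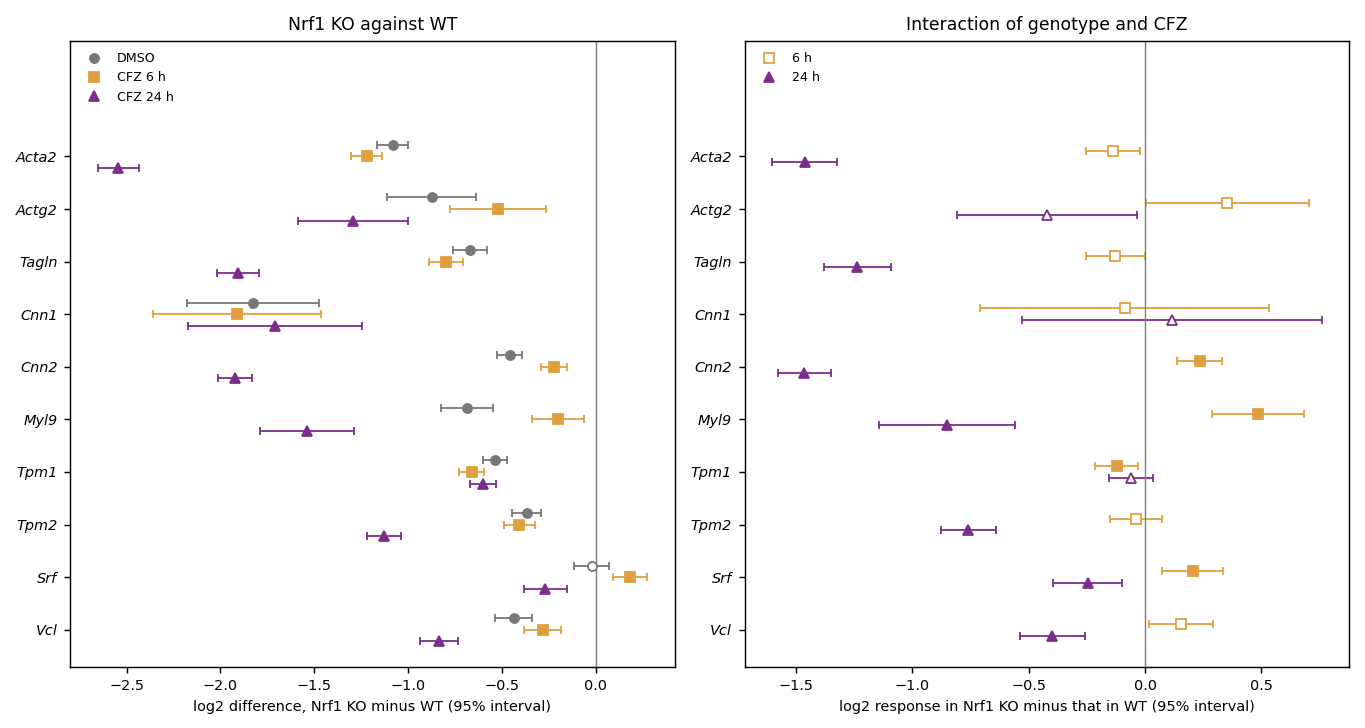
Left, log2 difference between Nrf1-KO and WT cells (x axis) in DMSO, after 6 h and after 24 h of CFZ; right, the interaction, the log2 response to CFZ in Nrf1-KO cells minus that in WT cells, at 6 and 24 h. Bars are 95% intervals and open symbols did not pass the adjusted threshold; at 24 h the interaction runs from -1.46 for Acta2 and Cnn2 to 0.12 for Cnn1.

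Whether the lines responded differently was tested by the interaction, the response to CFZ in Nrf1-KO cells minus that in WT cells. At 24 h 7 of the 10 genes had fallen further in Nrf1-KO cells and 3 did not pass, against 30% of all genes with a lower and 29.7% with a higher interaction. Acta2 (-1.46 ± 0.07, adjusted p = 1.78e-17), Cnn2 (-1.46 ± 0.06, adjusted p = 1.27e-19) and Tagln (-1.24 ± 0.07, adjusted p = 2.39e-15) had interactions past 2-fold, against 4.53% of all genes in that direction. Myl9 (-0.85 ± 0.15), Tpm2 (-0.76 ± 0.06), Vcl (-0.40 ± 0.07) and Srf (-0.25 ± 0.08) followed. Tpm1 fell in both lines with an interaction of -0.06 ± 0.05 (95% interval -0.16 to 0.03, adjusted p = 0.282), which became -0.14 and passed with library size alone (adjusted p = 0.0154). Actg2 had -0.42 ± 0.20 (adjusted p = 0.0663), and Cnn1 had 0.12 ± 0.33. The Actg2 interaction passed without Nrf1-KO DMSO replicate 3 (-0.65, adjusted p = 0.00306), WT DMSO replicate 2 (adjusted p = 0.0468) or Nrf1-KO 24 h replicate 1 (adjusted p = 0.0447), with no filter on low counts (adjusted p = 0.0407) and with library size alone (adjusted p = 0.0281). With library size alone 9 of the 10 genes thus had a lower interaction at 24 h. Of all called genes 40% then had a higher interaction, against 49.8% with TMM.

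At 6 h the interaction was smaller and of mixed sign, higher for 3 genes and lower for 1, against 19.8% of all genes higher and 18.4% lower. Myl9 rose further in Nrf1-KO cells (0.49 ± 0.10, adjusted p = 0.000224). Cnn2, which fell in WT cells, had 0.23 ± 0.05 (adjusted p = 0.000268). Srf had 0.21 ± 0.07 (adjusted p = 0.0153), which did not pass without WT DMSO replicate 1 (adjusted p = 0.077), WT 6 h replicate 1 (0.057) or 2 (0.0734), or Nrf1-KO DMSO replicate 3 (0.0607). Tpm1 had -0.12 ± 0.05 (adjusted p = 0.0416), and it did not pass when any 1 of 6 libraries was left out (WT DMSO replicate 3, WT 24 h replicate 3, Nrf1-KO DMSO replicates 2 and 3, and Nrf1-KO 6 h replicates 1 and 2, with adjusted p from 0.0507 to 0.127). With upper-quartile scaling or library size alone the count was 4 higher and 0 lower, since Tpm1 no longer passed (adjusted p = 0.163 and 0.0977) and Vcl did (adjusted p = 0.028 and 0.0396). Of all called genes 60.3% and 56.5% then had a higher interaction, against 51.8% with TMM. Vcl, at 0.15 ± 0.07 (adjusted p = 0.0829), also passed without Nrf1-KO DMSO replicate 1 (0.24, adjusted p = 0.0017), with no filter (adjusted p = 0.0439) and with the compared groups alone (adjusted p = 0.0473). Acta2, at -0.14 ± 0.06 (adjusted p = 0.0657), passed when any 1 of 7 libraries was left out (WT DMSO replicate 2, WT 6 h replicates 1 and 3, Nrf1-KO DMSO replicate 3 and all 3 of Nrf1-KO 24 h, with adjusted p from 0.0118 to 0.0406), with no filter (adjusted p = 0.0124) and with the compared groups alone (adjusted p = 0.0455). Actg2 passed without Nrf1-KO DMSO replicate 2 (0.51, adjusted p = 0.0218), and Tagln without Nrf1-KO 6 h replicate 2 (-0.18, adjusted p = 0.0439) or 24 h replicate 1 (-0.15, adjusted p = 0.0494).

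The cofactors of SRF moved in both directions. Of 6 on the list, 5 were tested, and Myocd, the cofactor of muscle cells, was at or near 0 counts. At 24 h 2 were higher and 2 lower in WT cells, against 43.2% and 40.5% of all genes. In Nrf1-KO cells 3 were higher and 1 lower, against 44.4% and 41.1%. Mkl1, a myocardin-related factor, had 0.06 ± 0.05 in WT and -0.02 ± 0.05 in Nrf1-KO cells at 24 h, and fell by 0.20 and by 0.17 at 6 h. Its DMSO level was higher in Nrf1-KO cells (0.43 ± 0.05, adjusted p = 8.43e-09), at 90.59 ± 5.03 against 66.69 ± 2.75 CPM. Mkl2 fell by 0.29 in WT cells at 24 h and rose by 0.16 in Nrf1-KO cells (interaction 0.45 ± 0.08, adjusted p = 1.69e-05). Elk3, a growth factor responsive partner, fell in all 4 comparisons with DMSO, by 0.97 and 0.77 in WT cells at 6 and 24 h and by 0.80 and 0.65 in Nrf1-KO cells. Elk1 and Elk4 rose at 24 h in both lines, by 0.31 and 0.42 in WT and by 0.60 and 0.51 in Nrf1-KO cells.

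Of the other actins, Actg1 and Actb, the cytoplasmic isoforms of all cells, were abundant. Actg1 rose 2.01-fold in WT and 1.91-fold in Nrf1-KO cells at 6 h. In WT cells it went from 1428, 1516 and 1443 CPM in DMSO to 2968, 2929 and 2908 at 6 h and 1619, 1636 and 1683 at 24 h. In Nrf1-KO cells it went from 1200, 1211 and 1183 to 2288, 2281 and 2304 and then to 757.9, 751.1 and 741.4. The 24 h values thus stayed above DMSO in WT cells (0.17 ± 0.03) and fell below it in Nrf1-KO cells (-0.68 ± 0.03), with an interaction of -0.85 ± 0.04 (adjusted p = 7.3e-17). Actb had log2 fold changes of 0.22 at 6 h and -0.33 at 24 h in WT cells, and of 0.19 and -0.65 in Nrf1-KO cells, each past the threshold. Acta1, the skeletal isoform, rose at 6 h in both lines (1.52 ± 0.30 and 1.19 ± 0.47) from levels under 1 CPM, and the cardiac isoform Actc1 had 0 counts in all 18 libraries.

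Of 30 other actin-binding and adhesion genes, all tested, 14 rose and 11 fell in WT cells at 6 h, against 35.6% and 36.2% of all genes. In Nrf1-KO cells 13 rose and 7 fell, against 34.5% and 35%. At 24 h 7 rose and 17 fell in WT, and 9 rose and 20 fell in Nrf1-KO cells, with median log2 fold changes of -0.24 and -0.48. Of all genes, 43.2% rose and 40.5% fell in WT, and 44.4% rose and 41.1% fell in Nrf1-KO cells at that time. In DMSO 6 were higher and 20 lower in Nrf1-KO cells, against 25.7% and 29.1% of all genes. At 24 h Fhl1, a LIM-domain protein of muscle, fell most in both lines. Its log2 fold changes were -2.11 ± 0.10 in WT and -3.53 ± 0.35 in Nrf1-KO cells. In DMSO it was at 32.56 ± 4.51 CPM in WT and only 3.201 ± 0.543 in Nrf1-KO cells, where the 24 h libraries had 0.2219 to 0.3521. Itga5, the fibronectin receptor subunit, rose most in WT cells (0.99 ± 0.04), and Zyx, encoding the stress fibre protein zyxin, rose most in Nrf1-KO cells (1.41 ± 0.03), at 507.6 to 512.4 CPM against 184.7 to 202.4 in DMSO. The 24 h interaction was higher for 8 and lower for 15 of the 30, against 29.7% and 30% of all genes. It ran from -1.48 ± 0.16 for Mylk, the myosin light chain kinase, to 0.78 ± 0.05 for Zyx. Mylk stood at 19.84 ± 1.55 CPM in Nrf1-KO DMSO and at 8.159 ± 0.664 in WT DMSO. At 24 h it stood at 5.868 ± 0.834 in Nrf1-KO and 6.698 ± 0.712 CPM in WT cells.

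**Figure D5:**
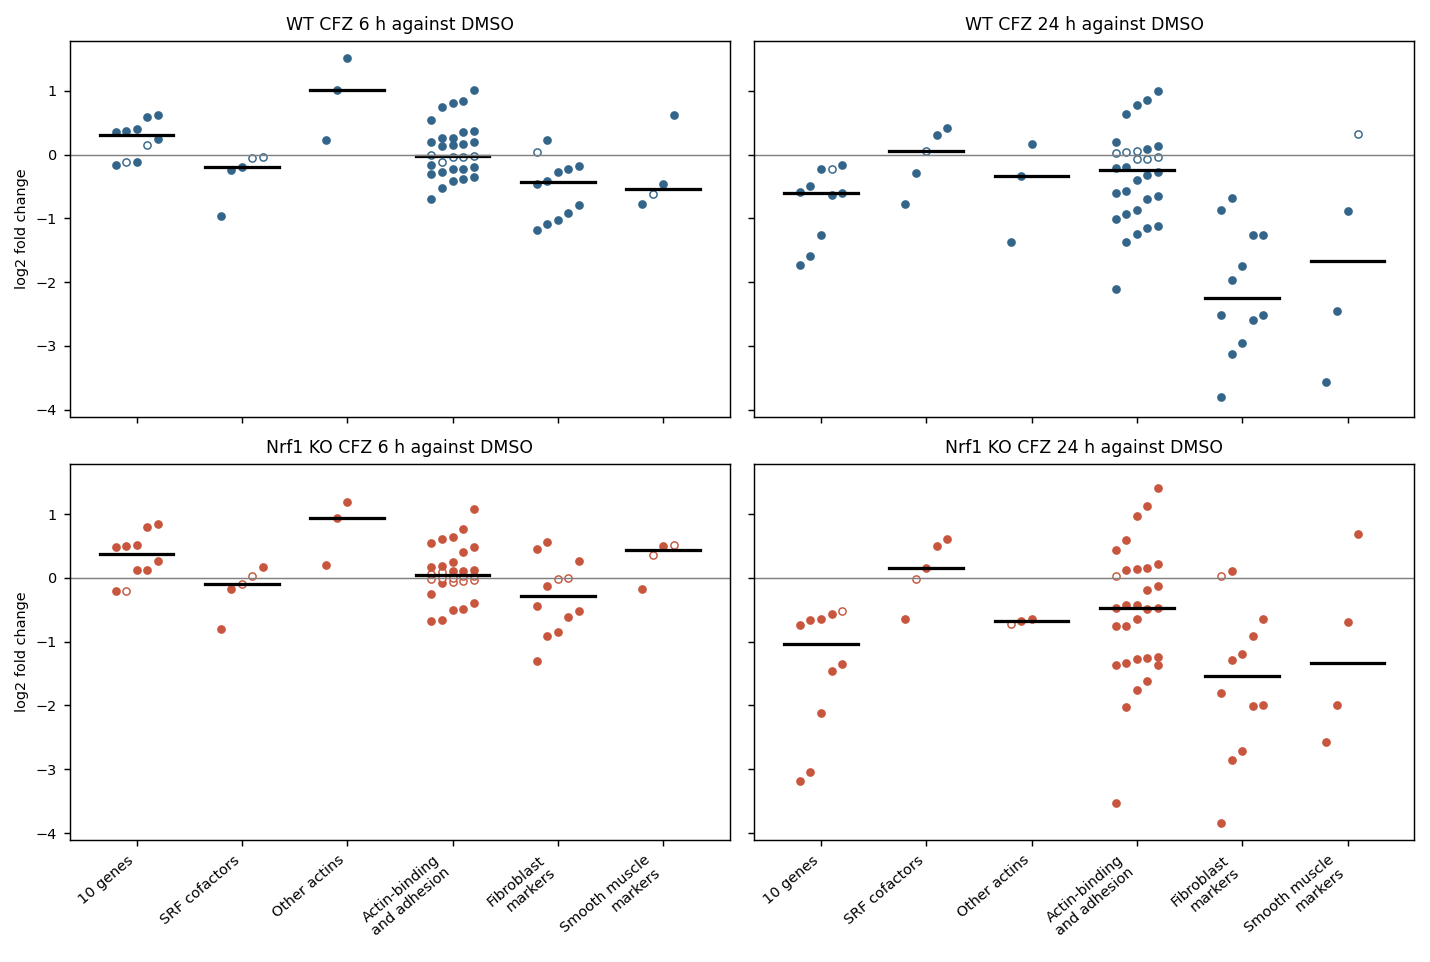
log2 fold change against DMSO (y axis) of the 10 genes and of the tested members of 5 other lists (x axis), in WT (blue) and Nrf1-KO cells (red) at 6 h (left) and 24 h (right); each point is a gene, open points did not pass the threshold and the bar is the list's median. The median of the 10 genes is 0.30 and 0.37 at 6 h, and -0.60 and -1.04 at 24 h.

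The cells carried fibroblast markers, and these moved with CFZ too. Of 14 listed, 12 were tested, and their summed level was 34340 to 37350 CPM in WT DMSO and 28250 to 34680 in Nrf1-KO DMSO. It was 8661 to 8976 CPM in WT and 11360 to 13510 in Nrf1-KO cells after 24 h, and Lum and Fap stayed under 1 CPM. All 12 fell in WT cells at 24 h, against 40.5% of all genes, from Pdgfra (-0.68 ± 0.05) to Col3a1 (-3.80 ± 0.05). In Nrf1-KO cells 10 fell and 1 rose, against 41.1% and 44.4% of all genes, from S100a4 (-3.85 ± 0.06) to Pdgfra (0.10 ± 0.04). At 24 h 6 of these markers were higher and 4 lower in Nrf1-KO than in WT cells, against 35.6% and 36.4% of all genes. The interaction was higher for 7 and lower for 3, against 29.7% and 30%, from S100a4 (-1.25 ± 0.08) to Col3a1 (2.001 ± 0.06).

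Of 7 markers of mature smooth muscle, 3 stayed under 1 CPM, with Kcnmb1 at 0 in all libraries and Myh11 at 0.1903 CPM or less. Others were present. In WT DMSO Smtn was at 109.5 to 114.7 CPM, Synm at 43.58 to 52.39 and Lmod1 at 3.071 to 3.248. Of the 7 listed 4 were tested, and 3 fell at 24 h in each line, namely Synm, Smtn and Lmod1. Of all genes, 40.5% fell in WT and 41.1% in Nrf1-KO cells. The log2 fold change of Lmod1 was -3.57 ± 0.28 in WT and -2.58 ± 0.34 in Nrf1-KO cells. Des rose in Nrf1-KO cells (0.68 ± 0.21) and had 0.31 ± 0.32 in WT cells. Their summed level was 158.5 to 165.6 CPM in WT DMSO and 67.99 to 73.7 at 24 h, and 133.2 to 144.6 and 71.67 to 77.89 in Nrf1-KO cells. At 24 h none of these 4 had a lower interaction and 2 had a higher one, against 30% and 29.7% of all genes. The 4 values ran from 0.19 ± 0.07 for Smtn to 0.99 ± 0.59 for Lmod1, and Lmod1 did not pass.

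Markers of other cell types were low. Of 7 for skeletal and cardiac muscle, 6 stayed under 1 CPM, and the summed level fell from 5.731 to 6.298 CPM in WT DMSO to 3.151 to 3.777 at 24 h, and from 4.925 to 5.437 to 2.663 to 2.917 in Nrf1-KO cells. Tnnt2, the 1 tested, fell by 0.71 and by 0.86. Of 5 epithelial markers 3 were at 0 in all libraries, and Cdh1, the 1 tested, had log2 fold changes of -3.54 in WT and -4.87 in Nrf1-KO cells at 24 h. Their sum went from levels of 5.905 to 6.364 and 10.82 to 13.03 CPM in DMSO to under 1 CPM. Of 4 endothelial markers 3 stayed under 1 CPM. Their sum was 0.5314 to 0.9129 CPM in WT DMSO and 3.355 to 4.153 at 24 h, and 0.6365 to 0.9193 and 3.873 to 4.327 CPM in Nrf1-KO cells, mostly Cdh5 (3.67 ± 0.31 in WT and 4.22 ± 0.30 in Nrf1-KO cells). Of the blood markers 2 were tested. Cd68 rose at 24 h in both lines, by 2.26 and 2.55, to 4.63 CPM at most. Ptprc had 0 counts in the 9 WT libraries and 0.7194 to 1.331 CPM in the 9 Nrf1-KO libraries. The part of these markers in the changes of the 10 genes was not tested.

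The likeness of 2 genes' patterns was measured as the root mean square difference between their 6 group means of log2 CPM, each centred on its own mean. Neighbours were sought among 10251 tested genes (those averaging 50 counts or more), with the 10 left out. The closest pair among the 10 was Tpm1 with Vcl, at 0.179, and Acta2 was 1.18 from both Cnn1 and Srf. Outside the 10, Acta2 had 1 gene much nearer than all others, Ctgf, which encodes a matrix-associated growth factor, at 0.252. Next came Neurl1a at 0.527 and Kif15 at 0.551. Within the 10, Cnn2 was nearest to Acta2, at 0.483. For Tagln the nearest were Cald1, encoding the actin-binding protein caldesmon (0.193), Adam12 (0.199) and Ror1 (0.277). For Cnn2 they were Top2a (0.202), Shcbp1 (0.207) and Ska1 (0.221), and for Myl9 F3 (0.234), Klf2 (0.292) and Sgol2 (0.302).

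Srf, Vcl, Tpm1, Tpm2 and Actg2, the genes with the narrowest ranges, had closer neighbours than the other 5. Genes close to Srf were Klf7 (0.116) and Pradc1 (0.128). Vcl lay nearest to Scfd1 (0.0929), Myh9, the non-muscle myosin heavy chain (0.0998), and Fam212a (0.1). Tpm1 had Creb3l1 (0.1), Nexn, encoding the actin-binding protein nexilin (0.119), and Ufl1 (0.124), and Tpm2 had Srr (0.0674), Scara5 (0.0808) and Mecr (0.0811). The nearest to Actg2 were Col4a2 (0.122), Fads3 (0.128) and Sptbn1 (0.148), and to Cnn1 Lama5 (0.259), Tmem181a (0.283) and Bace1 (0.284). These are descriptions over 6 groups that share the scaling and the DMSO libraries.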

How the data were processed

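Stranded mRNA libraries were sequenced as paired reads, and the authors deposited 1 table of raw counts per gene symbol for the 18 libraries, made with an Illumina app that joins the STAR aligner and DESeq2. Versions, genome build, annotation and use of strand are not given in the sources used here. Columns were matched to libraries by the number in the sample descriptions. The 10 genes and all other lists were chosen with earlier results of these data known, so their counts are descriptions and not independent support.

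Genes were kept by filterByExpr (minimum count 10, minimum total 15), scaled by TMM and tested with edgeR 4.0.16 (R 4.3.3, limma 3.58.1) quasi-likelihood tests in 1 model of 6 groups, with 11 comparisons and Benjamini-Hochberg adjustment over 11762 genes at 0.05. The common biological coefficient of variation was 3.131%. SE is the log2 fold change divided by the root of F, and 95% intervals are 1.96 SE. Scripts were tested on simulated counts. Alternatives were DESeq2 1.42.0, other scalings, other filters, the compared groups alone, a replicate block, a 2-fold minimum and leaving out each library.

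Named genes were the 10 members, Nfe2l1, the SRF cofactors and other actins, the members of each other list with the highest and lowest log2 fold change at 24 h or in the 24 h interaction, and the 3 nearest genes of each member. Synm, Lum, Fap, Myh11, Kcnmb1, Ptprc, Pcsk7 and Ap3m1 fall outside this rule and were named after their values were seen. Of what the rule covers, 1 list and 1 gene are not reported here. Positions are from GENCODE M21 (GRCm38), which may not be the authors' build. Intervals and p-values cover the spread between these libraries only.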

Additional observations from a re-analysis of the deposited data

Results flagged for a closer look

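The lines differed in their response to CFZ for 11 of the 20 interactions tested in the 10 genes, by edgeR's quasi-likelihood test with Benjamini-Hochberg adjustment over all genes. Of these, 4 were at 6 h, where 19.8% of all genes had a higher and 18.4% a lower interaction, so that their share was near that of all genes. The other 7 were at 24 h, all lower, against 29.7% higher and 30% lower. At 24 h Acta2 had -1.46, Cnn2 -1.46, Tagln -1.24, Myl9 -0.85, Tpm2 -0.76, Vcl -0.40 and Srf -0.25 on the log2 scale, each a further fall in Nrf1-KO cells. At 6 h Myl9 had 0.49, Cnn2 0.23 and Srf 0.21, each higher in Nrf1-KO cells, and Tpm1 had -0.12. Myl9, Cnn2 and Srf thus had interactions of opposite sign at 6 and 24 h. Both times are set against the same DMSO libraries, and the change of sign itself was not tested.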

How the results depend on the processing

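Of 110 log2 values (10 genes in 11 comparisons), DESeq2 kept the direction and side of the threshold of 108, a mean count of at least 10 all 110, the compared groups alone 107, no filter 104, upper-quartile scaling 103 and library size alone 100. Over all genes, libraries of the same replicate number showed little sign of pairing (correlations of deviations from -0.04941 to 0.09721). This does not cover single genes. Vcl was lower in replicate 3 than in replicate 1 in every group, as in Nrf1-KO DMSO (369.8 against 445.4 CPM). With a replicate block 108 were kept, while Acta2 (-0.14, adjusted p = 0.0348) and Vcl (0.15, adjusted p = 0.014) passed in the 6 h interaction. Leaving out each library gave 1980 values, of which 1936 were kept, 14 lost, 23 gained and 7 turned sign. A minimum of 2-fold left, by construction, 0 genes at 6 h and 3 at 24 h in WT cells, 4 between 6 and 24 h, 0 and 5 in Nrf1-KO cells at 6 and 24 h, 2 between the lines in DMSO and 2 at 6 h, and 0 and 3 in the 6 and 24 h interactions. Values near 0 turned sign, and the cause was not tested. Srf between the lines in DMSO was 0.0263 (adjusted p = 0.675) with library size alone and -0.0464 to 0.011 without 1 library. Without 1 library Cnn1 ran from -0.2189 to 0.0252 in WT cells at 6 h, from -0.2815 to 0.0741 in the 6 h interaction and from -0.0784 to 0.2769 in the 24 h interaction. Shifts of the median of all genes past 0.1 were -0.14 and -0.11 with upper-quartile scaling in WT and Nrf1-KO cells at 24 h, -0.11 in WT cells at 6 h, and, with library size alone in WT and Nrf1-KO cells, -0.13 and -0.11 at 6 h and -0.11 and -0.18 at 24 h. The share of called genes that were higher went from 49.6% to 37.9% in WT cells at 6 h with upper-quartile scaling. Cnn1 rested on 9 to 85 counts a library, which limits its precision.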
